A study of Homo sapiens with 24 samples.

Results

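HCT116 (written HCT-116 in the labels) is an established human colorectal carcinoma cell line. Its RNA at 21% oxygen (normoxia, Nx) was compared with that of A549 lung, PC3 prostate and T47D breast cancer cells at the same oxygen level. The members are the 3 HCT116 libraries of the 12 normoxic libraries and 24 libraries in all, with 3 libraries for each line, and the comparison covered every gene in the files. Polyadenylated RNA was sequenced and counted for 23106 gene symbols, of which 15616 had enough counts to be tested. Each group was 1 unmodified line, and the sources used here do not say whether its 3 libraries came from separate cultures, so p values measure the spread between these libraries. HCT116 was grown in McCoy's 5a medium, A549 and PC3 in F12K and T47D in DMEM, all with serum, and line and medium cannot be told apart. The 3 HCT116 libraries at 0.5% oxygen for 16 h (hypoxia, Hx) and the 9 hypoxic libraries of the other lines served only to repeat the comparison.

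Colorectal cancer cells usually carry a lesion that keeps beta-catenin active, so that it partners TCF and LEF factors on Wnt target genes without a Wnt signal. HCT116 is known for such a mutation in CTNNB1 itself. This is a background fact, and the counts bear on RNA levels only.

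Library totals ranged from 22698584 to 61798736 counts, with 51576574, 50636883 and 61798736 in HCT116. Levels are given as CPM, a library's counts scaled to a common total, after TMM scaling, and are compared between lines, not between genes. A library's 3 counts, taken as the floor for a gene at 0, correspond to 0.0454 to 0.13 CPM, and floors and intervals cover counting error only. The 3 HCT116 libraries correlated with each other at Pearson's r of 0.985 to 0.988 across genes, with PC3 at 0.789 to 0.816, with A549 at 0.772 to 0.799 and with T47D at 0.734 to 0.749. The 10 most abundant genes took 8.78% of the counts of HCT116 replicate 2 and 5.67% and 6.74% of replicates 1 and 3.

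HCT116 differed from the mean of the other lines at most genes tested. With edgeR's quasi-likelihood test, 5440 genes were higher (34.8%) and 4628 were lower (29.6%) than the mean of the 3 lines on the log2 scale, where a call needed an adjusted p (Benjamini-Hochberg) below 0.05 together with a difference above 1.2-fold. A mean over logs gives weight to lines in which a gene is near 0, so a gene may lie above this mean and below 1 line. Of the genes called higher than the mean, 3615 were above all 3 lines, 1579 above 2 lines and 246 above 1 line. A stricter reading asked for a call in the same direction against each of the 3 lines. By that rule 1994 genes (12.8%) were higher and 1755 (11.2%) lower in HCT116, and these are the genes described here as higher or lower than each line. All 3 HCT116 libraries lay above the other 9 at 2127 genes (13.6%) and below them at 1762 genes (11.3%). With a difference over 4-fold against each line, 430 genes remained higher and 524 lower.

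**Figure D1:**
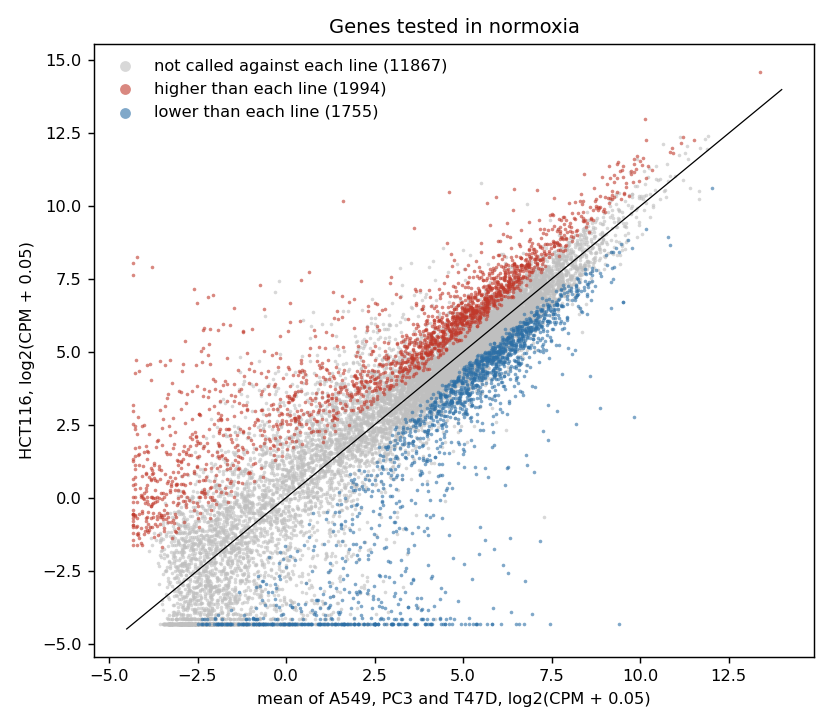
Mean CPM in HCT116 (vertical axis) against the mean of the A549, PC3 and T47D values (horizontal axis), each as log2(CPM + 0.05), for the 15616 genes tested, with the line of equal levels. Red points are the 1994 genes higher and blue points the 1755 genes lower than each line, and the row of points along the bottom holds genes with no count in HCT116.

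The sharpest differences were genes present in 1 state in HCT116 and in the opposite state in all 3 other lines. GTSF1 (chr12:54849734-54867386, minus strand), a germ-cell gene of the piRNA pathway, stood at 218, 345 and 243 CPM in the 3 HCT116 libraries and had no count in any of the other 9. It was at least 4626-fold higher than in A549, 2867-fold higher than in PC3 and 4796-fold higher than in T47D, against the floor of 3 counts a library. MAGEB2 (chrX:30233680-30238206, plus strand), a cancer-testis antigen, stood at 249.8, 317 and 361 CPM in HCT116, with 2 counts in A549 and none in PC3 and T47D. WNT16, a Wnt ligand, stood at 209, 289 and 233 CPM in HCT116 and at no more than 0.0908 CPM in any other library. MT1E, a metal-binding metallothionein, stood at 203, 204 and 189 CPM in HCT116 and at 0 elsewhere, and PRF1, which encodes the pore-forming perforin of cytotoxic lymphocytes, at 5.07, 7.84 and 10.7 CPM against 0. Metallothionein and MAGE genes have close copies, and reads without a unique position had been removed, so the zeros and levels of MT1E and MAGEB2 hold only for uniquely placed reads.

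In the opposite direction, IGFBP4 (chr17:38599702-38613977, plus strand), a secreted binding protein of insulin-like growth factors, had no count in HCT116. It stood at 2396, 2024 and 2655 CPM in A549, 369, 356 and 315 CPM in PC3 and 362, 361 and 449 CPM in T47D. Against the floor it was at least 40140.0-fold lower in HCT116 than in A549, 5901-fold lower than in PC3 and 6653-fold lower than in T47D. CHFR, a mitotic checkpoint ubiquitin ligase, had no count in HCT116 against means of 31.0 ± 1.89 CPM (SD, n = 3) in A549, 31.5 ± 1.98 CPM (SD, n = 3) in PC3 and 61.2 ± 4.73 CPM (SD, n = 3) in T47D. RAB32, a small GTPase of organelle transport, had none against 46.5 ± 6.12 CPM (SD, n = 3), 46.0 ± 12.6 CPM (SD, n = 3) and 40.4 ± 7.03 CPM (SD, n = 3). The carbonyl reductase CBR1 and the secretory protein AGR2 were also at 0 in all 3 HCT116 libraries, with means of 68.9 to 147 CPM and 54.0 to 1311 CPM in the other lines. The other 10 of the 15 genes with the widest gap below each line (ACOT2, EFEMP1, ROBO1, HDGFRP3, LDOC1, RPL39L, SLFN11, ZNF260, SPG20 and NNT) likewise had no count in HCT116. RPL39L and ACOT2 have near-identical relatives, and their zeros are uncertain in the same way as those of MT1E.

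**Figure D2:**
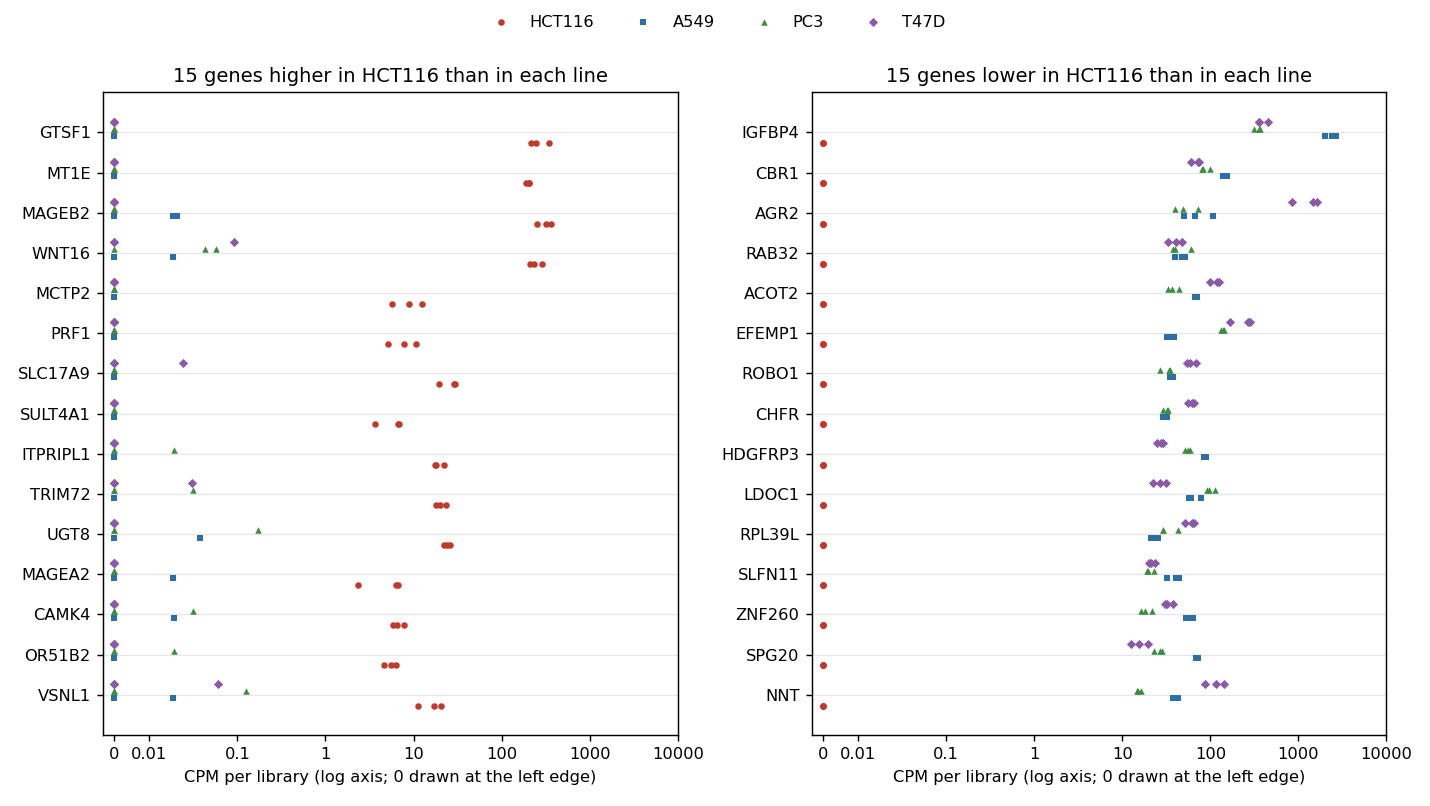
CPM in each of the 12 normoxic libraries (log axis, with 0 drawn at the left edge) for the 15 genes with the widest gap above each line (left) and the 15 with the widest gap below each line (right) in HCT116. Each point is 1 library. The HCT116 points stand apart from the other 9 in every row because the genes were chosen without overlap between libraries. Over all genes tested, 13.6% lay above the other 9 in this way and 11.3% below them.

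Counted over all genes, 49 had at most 3 counts summed over the HCT116 libraries and at least 5 CPM on average in each of the other lines, and 33 of them had no count at all. The same rule gave 17 such genes for A549, 32 for PC3 and 43 for T47D. The reverse, at least 5 CPM in HCT116 and at most 3 summed counts in each other line, held for 12 genes in HCT116, 39 in A549, 19 in PC3 and 40 in T47D. These rules were set after the values were seen, and the counts carry no test. Besides those named, the 49 genes included the protocadherin PCDHB2, the matrix protein MATN3, the TGF-beta inhibitor PMEPA1, the schlafens SLFN11 and SLFN13, and the zinc finger genes ZNF260, ZNF331, ZNF529, ZNF549, ZNF605 and ZNF71. At 0.5% oxygen, 35 of the 49 still had at most 3 summed counts in HCT116 and 0 reached a mean of 5 CPM, and 9 of the 12 stood at 5 CPM or more. The hypoxic HCT116 counts of ACOT2, CBR1, NNT, SLFN11 and IGFBP4 all came from replicate 2, and those of AGR2 from replicates 1 and 2.

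The sequence before the start of some of these genes is shown because CG dinucleotides, where DNA methylation falls, set apart promoters of different kinds. The stretches are the 250 bases before the RefSeq start, matched without a mismatch to GRCh37 and written 5′ to 3′ on the gene's strand, with CG in capitals. The first 3 belong to genes at 0 in HCT116 and present in each other line, and the last 2 to genes present only in HCT116 among these lines at 5 CPM or more.
IGFBP4, chr17:38599452-38599701, plus strand: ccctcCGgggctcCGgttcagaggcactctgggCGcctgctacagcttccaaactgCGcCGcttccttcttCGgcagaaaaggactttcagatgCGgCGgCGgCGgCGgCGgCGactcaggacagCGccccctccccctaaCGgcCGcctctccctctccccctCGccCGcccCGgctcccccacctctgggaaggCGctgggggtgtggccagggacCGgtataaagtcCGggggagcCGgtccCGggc
CHFR, chr12:133464192-133464441, minus strand: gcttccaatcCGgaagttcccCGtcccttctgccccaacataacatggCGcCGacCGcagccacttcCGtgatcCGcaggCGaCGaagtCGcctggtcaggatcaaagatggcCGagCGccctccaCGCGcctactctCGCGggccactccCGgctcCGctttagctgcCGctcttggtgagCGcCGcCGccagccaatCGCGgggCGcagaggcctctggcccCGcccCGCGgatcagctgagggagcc
RAB32, chr6:146864719-146864968, plus strand: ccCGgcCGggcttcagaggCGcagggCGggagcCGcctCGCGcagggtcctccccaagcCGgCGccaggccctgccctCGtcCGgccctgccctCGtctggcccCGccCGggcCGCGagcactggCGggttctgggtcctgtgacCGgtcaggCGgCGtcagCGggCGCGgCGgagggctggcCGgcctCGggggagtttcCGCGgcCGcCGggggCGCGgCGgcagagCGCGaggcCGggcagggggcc
GTSF1, chr12:54867387-54867636, minus strand: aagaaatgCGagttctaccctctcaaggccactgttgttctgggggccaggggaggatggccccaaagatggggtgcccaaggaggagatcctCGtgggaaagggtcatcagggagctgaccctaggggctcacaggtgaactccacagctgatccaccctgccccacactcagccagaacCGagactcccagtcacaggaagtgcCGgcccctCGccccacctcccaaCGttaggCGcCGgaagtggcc
MAGEB2, chrX:30233430-30233679, plus strand: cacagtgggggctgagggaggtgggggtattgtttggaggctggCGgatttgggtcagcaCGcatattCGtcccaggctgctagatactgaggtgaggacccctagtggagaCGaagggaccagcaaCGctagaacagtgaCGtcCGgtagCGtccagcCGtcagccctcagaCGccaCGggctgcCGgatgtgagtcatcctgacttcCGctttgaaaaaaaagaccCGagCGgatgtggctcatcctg
The windows hold 24 (IGFBP4), 28 (CHFR), 36 (RAB32), 8 (GTSF1) and 15 (MAGEB2) CG dinucleotides. Over the 11788 tested genes with a promoter in the RefSeq table (GRCh38.p14) the median was 20, and 69.5% had 15 or more. Among the 49 genes silent in HCT116, 39 had a promoter there, with a median of 15 and 56.4% at 15 or more. Of the 12 genes present only in HCT116, 8 had one, with a median of 8.5. The letters TCAAAG on either strand, the core that TCF and LEF factors bind, occurred in the window of 7.86% of tested genes, 8.23% of genes higher than each line and 8.03% of genes lower than each line. DNA methylation was not measured here, and a match of letters is not a binding site.

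Tissue markers gave HCT116 only part of an intestinal profile. Of 29 intestinal and colonic markers, 16 were tested, 8 were higher and 3 lower than the mean of the lines, and 4 were higher and 1 lower than each line (34.8%, 29.6%, 12.8% and 11.2% of all genes), with a median log2 difference of 1.29 against 0.01 over all genes tested. A fitted difference depends on the prior count where a line is at 0, and with such genes at the floor of 3 counts a library the median was 1.002. CDX2, a homeobox factor that specifies intestinal epithelium, stood at 12.3, 10.7 and 13.99 CPM in HCT116, 0.554, 1.03 and 0.772 CPM in A549 and 0 in PC3 and T47D. CA2, a carbonic anhydrase of colonic surface cells, stood at 40.8, 69.9 and 54.7 CPM against 2.52, 3.12 and 2.09 CPM in A549 and 0.0768 CPM or less in the other lines. KRT20, the keratin of differentiated colonic cells, reached only 1.72 ± 0.454 CPM (SD, n = 3), although above each line. The HCT116 values of these 3 genes did not overlap those of any other library. HNF4A, a factor of gut and liver epithelium, was called higher than the mean, yet stood at 4.57 ± 0.935 CPM (SD, n = 3) in HCT116 and 38.7 ± 6.03 CPM (SD, n = 3) in A549, so that it lay above only PC3 and T47D. Other defining genes were missing in HCT116. CDX1, VIL1, FABP1 and LGR5 had no count, LGALS4 and GPA33 averaged 0.0768 and 0.169 CPM, CDH17 was at 0.0585 CPM against 15.2 CPM in A549, and CEACAM6 was at 0 and lower than each line. The 29 markers summed to 80.6 to 105.6 CPM in HCT116 and 69.9 to 93.7 CPM in A549.

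Markers of the other lines' tissues differed by list. Over all genes tested, 34.8% were higher and 29.6% lower than the mean, and 12.8% and 11.2% against each line. Luminal breast genes were lower in HCT116 for 11 of 17 tested, 10 of them against each line, and higher for 1 (KRT23), with a median log2 difference of -5.45, or -4.71 with zeros at the floor. ESR1, the estrogen receptor, and PRLR, the prolactin receptor, had no count in HCT116, and FOXA1, which opens chromatin for ESR1, stood at 1.29 ± 0.580 CPM (SD, n = 3) against 14.8 CPM in A549, 92.4 CPM in PC3 and 285 CPM in T47D. T47D is a luminal breast line, but FOXA1, GATA3 and TFF1 in HCT116 lay below A549 and PC3 as well. Of 14 prostate markers, 11 were tested, 3 were higher and 1 lower than the mean, and KLK2, KLK3 and MSMB had too few counts in every line. HOXB13, called higher than the mean, stood at 9.96 CPM in HCT116, 12.1 CPM in A549, 78.3 CPM in PC3 and 0 in T47D. KLK4, also called higher, averaged only 0.170 CPM in HCT116 and was not called different from PC3 at 0.242 CPM. The prostate markers summed to 97.86 to 138.4 CPM in HCT116, 171.3 to 184 CPM in PC3, 131.7 to 136.1 CPM in A549 and 121.4 to 158.3 CPM in T47D. STEAP1, of the STEAP family of metal reductases, was the 1 marker higher than each line, at 44.6, 91.2 and 47.9 CPM, with replicate 2 the highest. In hypoxia STEAP1 was not called (log2 difference 0.13 from the mean), and 0 prostate markers were higher than each line. Of 14 lung markers, 7 were tested and 4 were higher than the mean, including NKX2-1, the factor of lung and thyroid, at 0.732, 1.05 and 1.15 CPM in HCT116 and 0 in the other 9 libraries, A549 included. AGER and NAPSA, also higher than the mean, averaged only 0.485 and 1.08 CPM in HCT116, and NAPSA was not higher than each line. NKX2-1 and AGER passed the count filter only through HCT116, so the number of lung markers called higher carries no weight. In hypoxia AGER was not tested and NAPSA was not called. ABCA3, the lipid transporter of surfactant-making cells, was lower than each line at 3.44 ± 1.03 CPM (SD, n = 3). Its means were 35.1 CPM in A549, 34.9 CPM in PC3 and 169 CPM in T47D. The lung markers summed to 6.398 to 9.712 CPM in HCT116, the lowest of any line. The sums were 31.12 to 39.84 CPM in A549, 36.26 to 48.3 CPM in PC3 and 155.4 to 191.1 CPM in T47D, mostly from ABCA3. Of 22 markers of blood, fibroblast, endothelial and neuroendocrine cells, 11 were tested and only COL1A1, CD68 and SYP reached 1 CPM in HCT116.

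Several Wnt target genes stood far higher in HCT116 than in any other line. Of 27 listed, 21 were tested, 11 were higher and 4 lower than the mean (against 34.8% and 29.6% of all genes), with a median log2 difference of 0.98, which was 0.75 against A549, -0.74 against PC3 and 3.01 against T47D. Against each line 7 were higher (AXIN2, NKD1, NKD2, RNF43, NOTUM, TCF7 and BMP4) and 1 lower (JUN), beside 12.8% and 11.2% of all genes. AXIN2, the scaffold that restrains beta-catenin and is itself induced by it, stood at 22.9, 15.2 and 17.7 CPM in HCT116, 5.09, 1.64 and 3.24 CPM in A549, 0.519, 0.634 and 0.592 CPM in PC3 and 0.630, 0.954 and 1.05 CPM in T47D. Every HCT116 library was above every other (log2 difference 3.95, SE 0.25, adjusted p = 8.43e-10). RNF43, a ligase that removes Wnt receptors, stood at 61.5, 58.1 and 58.4 CPM against 3.41 to 9.32 CPM in the other 9 libraries (log2 difference 3.33, SE 0.20, adjusted p = 6.22e-10). NKD1, an inhibitor of Dishevelled, stood at 8.59, 5.25 and 5.36 CPM and NOTUM, an enzyme that inactivates Wnt ligands, at 5.55, 6.16 and 8.33 CPM, both under 1 CPM in all other libraries. These 4 genes are all feedback inhibitors of the pathway. Other targets did not share the pattern. LEF1 summed to 1 count over the HCT116 libraries and ASCL2 to 0, and both were called lower than the mean, with T47D at 9.99 ± 0.863 CPM (SD, n = 3) and 9.94 ± 2.90 CPM (SD, n = 3). Without A549 replicate 1 both calls were lost (edgeR adjusted p = 1), and neither gene was called in hypoxia. LGR5 was not tested, and SOX9, CD44, CCND1, ZNRF3, EPHB2 and TNFRSF19 were not called. MYC, at 268 ± 79.8 CPM (SD, n = 3), was higher than the mean (log2 difference 0.98, SE 0.18, adjusted p = 0.000153), while its level in PC3 was 241 ± 20.7 CPM (SD, n = 3).

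**Figure D3:**
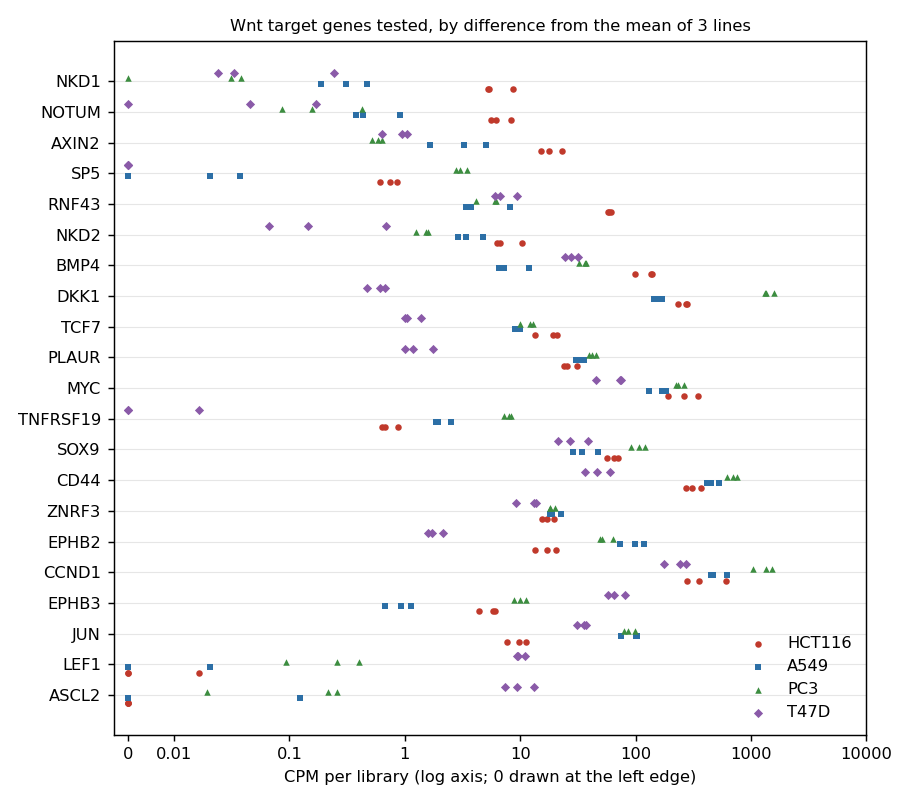
CPM in each normoxic library (log axis, 0 at the left edge) for the 21 Wnt target genes tested, ordered by the log2 difference of HCT116 from the mean of the 3 lines. HCT116 libraries lie to the right of all others for AXIN2, NKD1, NOTUM, RNF43, NKD2, TCF7 and BMP4, and at or near 0 for LEF1 and ASCL2.

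Components of the pathway did not move as a group. All 40 listed were tested, 10 were higher and 13 lower than the mean (34.8% and 29.6% of all genes), and the median log2 difference was -0.27. CTNNB1 stood at 302, 307 and 524 CPM in HCT116 and its level was not called different (log2 difference -0.07, SE 0.20, adjusted p = 0.8), with means of 346 to 433 CPM in the other lines. TCF7L2, the main TCF factor of the gut, was higher than each line at 96.5 ± 15.3 CPM (SD, n = 3) (log2 difference 2.36, SE 0.16, adjusted p = 1.89e-09). Of the ligands, WNT16 and WNT6 were higher than each line and WNT5A and WNT7B lower. Among receptors FZD6 was higher and FZD2 and FZD8 lower than each line, with FZD8 at 0.124 ± 0.0953 CPM (SD, n = 3) in HCT116 and 192 ± 17.3 CPM (SD, n = 3) in PC3.

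Epithelial genes went both ways in HCT116. Of 28 epithelial genes tested, 12 were higher and 12 lower than the mean (34.8% and 29.6% of all genes), with a median log2 difference of 0.20, or -0.003 with zeros at the floor. None was higher than each line and CLDN1, KRT7 and KRT18 were lower than each line (12.8% and 11.2% of all genes). CLDN1, a tight-junction protein, stood at 0.0188, 0.0933 and 0.150 CPM in HCT116 and at 53.5 CPM or more in the other 9 libraries (log2 difference -10.20, SE 0.37, adjusted p = 1.48e-12). KRT7, a keratin of simple ducts that colonic epithelium usually lacks, stood at 7.20, 6.06 and 7.25 CPM, against 3232 CPM in A549, 1427 CPM in PC3 and 158 CPM in T47D (log2 difference -7.04, SE 0.23, adjusted p = 4.99e-13). ESRP1, which directs epithelial splicing, at 117 ± 35.3 CPM (SD, n = 3), and RAB25, at 51.9 ± 7.55 CPM (SD, n = 3), were above A549, where neither passed 0.056 CPM in any library. ESRP1 was lower than in PC3 at 256 CPM and T47D at 196 CPM, and RAB25 was above PC3 at 12.5 CPM and lower than in T47D at 140.4 CPM. CDH1, encoding E-cadherin, stood at 23.6 ± 2.79 CPM (SD, n = 3), above A549 at 12.9 CPM and below PC3 at 209 CPM and T47D at 482 CPM (log2 difference -2.21, SE 0.24, adjusted p = 8.65e-07).

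Mesenchymal genes went both ways. Among 22 tested, 8 were higher and 10 lower than the mean (34.8% and 29.6% of all genes), with a median log2 difference of -1.37, which was -3.53 against A549, -0.76 against PC3 and 1.94 against T47D. CDH2, TWIST1 and FN1 were lower than each line (11.2% of all genes). FN1, encoding fibronectin, stood at 5.65, 4.50 and 4.48 CPM in HCT116 and at 42.5 CPM or more elsewhere (log2 difference -4.96, SE 0.27, adjusted p = 1.69e-10). VIM, encoding vimentin, was at 4.92 ± 0.405 CPM (SD, n = 3), below A549 at 1303 CPM and PC3 at 337 CPM and above T47D at 0.865 CPM. CDH2, N-cadherin, summed to 1 count in HCT116. ZEB1, a repressor of CDH1, was called higher than the mean (log2 difference 1.16, SE 0.22, adjusted p = 0.000253) although its level of 6.94 ± 1.53 CPM (SD, n = 3) was below A549 and close to PC3, since T47D had 0.111 CPM. CAV2, a caveolar protein, was high at 265 ± 38.7 CPM (SD, n = 3) with no count in T47D.

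Genes of growth arrest and apoptosis differed between lines. CDKN1A, the p21 inhibitor of cyclin-dependent kinases, stood at 95.7, 116 and 173 CPM in HCT116, above PC3 at 25.5 CPM and T47D at 40.2 CPM and below A549 at 197 CPM. MDM2, a ubiquitin ligase, stood at 289 ± 26.0 CPM (SD, n = 3) (log2 difference 1.08, SE 0.13, adjusted p = 1.69e-06). It was 4.985-fold higher than in PC3 and 1.56-fold higher than in A549, and was not called different from T47D (1.224-fold). The death receptor gene FAS, SESN1, RRM2B, BTG2, PLK3 and TRIAP1 were higher than each line, as were 12.8% of all genes. They are examples chosen after their values were seen and give no direction for genes of this kind. PLK3, a stress kinase, stood at 30.9, 31.2 and 33.5 CPM against 15.3 CPM or less elsewhere (log2 difference 3.08, SE 0.14, adjusted p = 2.26e-11). PHLDA3, an AKT inhibitor, was lower than each line (log2 difference -2.21, SE 0.17, adjusted p = 1.19e-08), as were 11.2% of all genes.

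DNA repair genes also differed. MSH3, which takes part in recognising insertion loops, stood at 3.73, 3.89 and 3.58 CPM in HCT116 against 19.9 CPM or more elsewhere (log2 difference -2.95, SE 0.16, adjusted p = 1.77e-10). MLH3 was lower than each line as well, at 14.8 ± 1.78 CPM (SD, n = 3) (log2 difference -1.23, SE 0.13, adjusted p = 6.53e-07). PMS1 was higher than each line at 83.2 ± 20.03 CPM (SD, n = 3), and MSH6 was lower than the mean (log2 difference -0.92, SE 0.19, adjusted p = 0.000548).

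At 9p21, MTAP, an enzyme of methionine salvage, was higher than each line at 259, 208 and 279.5 CPM (log2 difference 3.28, SE 0.12, adjusted p = 1.72e-12), and its neighbour CDKN2A, which encodes p16 and ARF, stood at 71.4 ± 12.6 CPM (SD, n = 3). A549 had no count for CDKN2A and 7.56 ± 0.237 CPM (SD, n = 3) for MTAP. CDKN2A in HCT116 was not higher than each line, with PC3 at 59.6 ± 9.58 CPM (SD, n = 3) and T47D at 50.2 ± 3.14 CPM (SD, n = 3). Of 27 replication and mitosis genes, 13 were higher and 7 lower than the mean (34.8% and 29.6% of all genes), with a median log2 difference of 0.40. PCNA, TYMS, CCNA2 and CCNB1 were higher than each line and TOP2A, AURKA, MYBL2, FOXM1, E2F1 and TPX2 lower, with E2F1 at 23.0 ± 3.20 CPM (SD, n = 3) (log2 difference -1.63, SE 0.15, adjusted p = 1.07e-07).

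Growth factor, receptor kinase and ERK feedback genes differed mainly from T47D. Of 32 tested, 21 were higher and 5 lower than the mean (34.8% and 29.6% of all genes), with a median log2 difference of 0.88, which was 2.21 against T47D, 0.20 against A549 and -0.09 against PC3. EREG, encoding the EGF-family ligand epiregulin, stood at 1112, 1299 and 1089 CPM in HCT116, 135, 224 and 189 CPM in A549 and 1.56 CPM or less in the other lines (log2 difference 8.89, SE 0.23, adjusted p = 7.08e-14). EGR1, an immediate-early factor, stood at 54.9, 56.2 and 43.6 CPM and at 1.04 CPM or less elsewhere (log2 difference 7.03, SE 0.24, adjusted p = 8.59e-13). SPRY4, a feedback inhibitor of receptor signalling, was at 78.0 ± 10.6 CPM (SD, n = 3) (log2 difference 3.70, SE 0.18, adjusted p = 3.49e-11). These were the 3 genes of 32 higher than each line, beside 12.8% of all genes, and IGF1R, at 8.29 ± 1.04 CPM (SD, n = 3), was the 1 lower than each line.

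Genes of TGF-beta and BMP signalling went both ways. Of 27 tested, 12 were higher and 11 lower than the mean (34.8% and 29.6% of all genes), with a median log2 difference of 0.002. Against each line 5 were higher and 7 lower (12.8% and 11.2% of all genes). The ligands INHBB, at 0.206, 0.303 and 0.416 CPM against 69.4 CPM or more elsewhere (log2 difference -8.85, SE 0.27, adjusted p = 2.45e-13), and TGFB2, at 0.6004, 0.327 and 0.433 CPM (log2 difference -6.59, SE 0.22, adjusted p = 5.98e-13), were lower than each line, as were the latent TGF-beta binding proteins LTBP1 and LTBP2 and the inhibitors SMAD6 and SKIL. BMP4, at 125 ± 22.1 CPM (SD, n = 3) (log2 difference 2.61, SE 0.15, adjusted p = 4.43e-10), BMP7, at 7.18 ± 2.055 CPM (SD, n = 3) (log2 difference 6.18, SE 0.38, adjusted p = 6.01e-10), and the BMP-induced factor ID1 were higher than each line. TGFBR2, the type II receptor, stood at 41.0 ± 3.11 CPM (SD, n = 3), below A549 at 179.8 CPM and PC3 at 155 CPM, while T47D had 1 count in all.

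Of 38 cancer-testis genes, 10 were tested. In 9 of these at least 1 line had no count, and several passed the count filter only through HCT116, so their number and direction carry no weight as a group. MAGEA2, MAGEA3, MAGEB1, MAGEB2 and TEX19 were higher than each line, with MAGEA3 at 135, 138 and 159 CPM in HCT116 and 0.481 CPM or less elsewhere. MAGEA2, MAGEA3 and MAGEA6 are near-identical copies whose reads may have been lost or split. The other 28 genes, among them most GAGE, SSX and CTAG members, had too few counts in every line to be tested. HOX genes, which mark position along the body axis, were higher than the mean for 18 and lower for 7 of 34 tested (34.8% and 29.6% of all genes), with a median log2 difference of 1.11, or 0.90 with zeros at the floor. The median was -0.10 against A549, 0.11 against PC3 and 2.23 against T47D. HOXA7, HOXA9 and HOXB4 to HOXB8 were higher than each line, and HOXC6, HOXC8, HOXC10, HOXC11 and HOXC13 lower. HOXA9 stood at 98.5, 109.9 and 96.4 CPM, against 50.7 ± 3.07 CPM (SD, n = 3) in PC3, 0.444 CPM in A549 and 0 in T47D.

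NRF2 target genes, which control redox and detoxification, were lower than the mean for 13 of 23 and higher for 2 (29.6% and 34.8% of all genes), and the median log2 difference was -2.52 against A549, -0.40 against PC3 and 0.58 against T47D. A549 is known for a KEAP1 mutation that activates NRF2. CBR1 and GPX2 were lower than each line. Of 27 antigen presentation and interferon genes tested, 9 were higher and 11 lower than the mean (34.8% and 29.6% of all genes). HLA-C, B2M and PSMB10 were higher than each line and OAS1 and OAS3 lower (12.8% and 11.2% of all genes). B2M, the light chain of MHC class I, varied between HCT116 libraries, at 607, 1321 and 526 CPM, with replicate 2 the highest, as for STEAP1. TAP1 and PSMB8 had at most 1 count in any library and were not tested. Reads without a unique position had been removed, so these counts and the HLA-C levels hold only for uniquely placed reads. The low counts do not show that TAP1 and PSMB8 RNA was absent.

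Because the study concerned the response to low oxygen, the HIF pathway was examined at 21% oxygen. EPAS1, encoding HIF-2 alpha, stood at 13.1, 14.2 and 14.6 CPM in HCT116, 278, 233 and 334 CPM in A549, 184, 213 and 134 CPM in PC3 and 28.6, 45.3 and 63.9 CPM in T47D. It was lower than each line (log2 difference -3.24, SE 0.25, adjusted p = 1.07e-08). HIF1A, at 161 ± 30.6 CPM (SD, n = 3), was lower than the mean (log2 difference -0.85, SE 0.16, adjusted p = 0.000211) but was not called different from T47D at 135 ± 22.3 CPM (SD, n = 3). Of 12 tested genes for HIF subunits, hydroxylases and related proteins, 1 was higher and 6 lower than the mean (34.8% and 29.6% of all genes). Of the 48 HIF target genes that the study chose with these lines among others, 8 were higher and 22 lower than the mean (34.8% and 29.6% of all genes), with a median log2 difference of -0.35, and their choice on these samples makes this count no independent evidence. PLOD2, BHLHE40 and 5 others were lower than each line (11.2% of all genes) and MXI1 was higher (12.8% of all genes), at 39.1 ± 6.75 CPM (SD, n = 3) (log2 difference 1.83, SE 0.13, adjusted p = 4.85e-09).

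**Figure D4:**
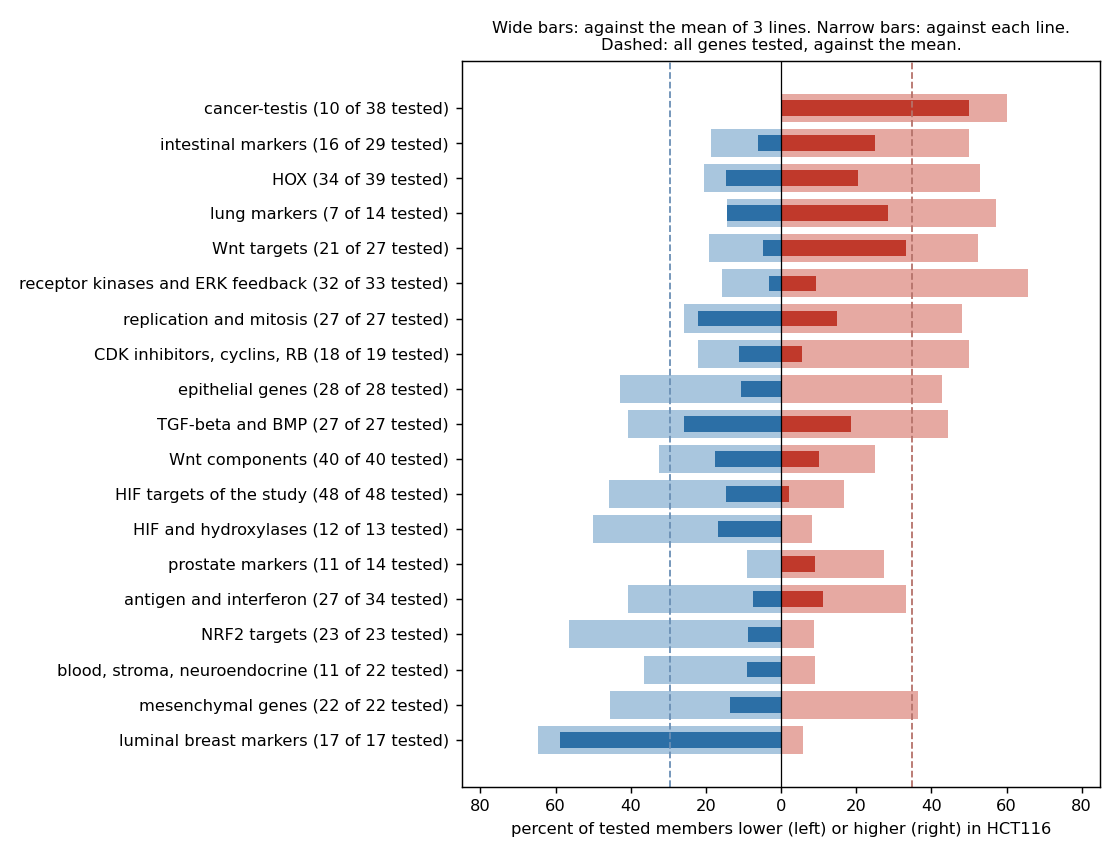
Percent of the tested members of each gene list shown that were higher (right, red) or lower (left, blue) in HCT116. Wide pale bars are calls against the mean of the 3 lines, narrow dark bars calls against each line, and dashed lines the shares over all genes tested (34.8% and 29.6%). Luminal breast markers reach furthest to the left and the receptor kinase list furthest to the right. Most lists shown pass the right dashed line, the Wnt targets among them, and most pass the left one, the NRF2 targets and mesenchymal genes among them. Some pass both. The right-hand bars of the cancer-testis and lung lists carry no weight, since members passed the count filter only through HCT116.

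Some differences were shared by neighbours on a chromosome. There were 36 runs of 4 or more consecutive tested genes higher than each line, holding 174 genes, and 18 such runs lower than each line, holding 83 genes. The longest run was 9 genes on chromosome 10 from C10orf88 to LHPP (chr10:124690417-126306457), with a median log2 difference of 1.36. A run of 8 genes lay at the globin locus (chr11:5274418-5526882), where HBE1, an embryonic globin, averaged 122.5 CPM in HCT116 and at most 1.03 CPM in the other lines, and OR51B5, an olfactory receptor gene, averaged 101.3 CPM. The annotated spans of HBG2, HBE1 and OR51B5 overlap, so reads of this locus may belong to a shared transcript. A run of 6 at chr12:10524952-10766208 held the natural killer receptor genes KLRK1, KLRC4, KLRC3 and KLRC2, with KLRC2 at 15.3 CPM on average and at most 0.074 CPM in the other lines. KLK7, KLK8, KLK10 and KLK13 on chromosome 19 formed another, with KLK8, a secreted protease, at 23.9 CPM. Lower runs included PCDHA1 to PCDHA6 and 5 PCDHG genes on chromosome 5, which share exons with one another, ACOT1, ACOT2 and ACOT4 with their neighbours on chromosome 14, ZNF260, ZNF529, ZNF382 and ZNF461 on chromosome 19, and ANKLE2, GOLGA3, CHFR and ZNF605 at the end of chromosome 12.

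Whole chromosomes also differed in their median. Relative to all genes tested, the median log2 difference was 0.47 on chromosome 13, 0.46 on chromosome 4, 0.40 on chromosomes 6 and 18 and 0.32 on chromosome 22, and it was -0.56 on chromosome 20, -0.45 on chromosome 21, -0.41 on chromosome X, -0.33 on chromosome 14 and -0.30 on chromosome 11. On chromosome 13, 27.4% of tested genes were higher than each line against 12.8% of all genes, and on chromosome 20, 23.8% were lower than each line against 11.2%. The sign was the same in all 3 HCT116 libraries on each of these 10 chromosomes. Genes on chromosomes 4, 13 and 18 had the lowest median GC content, at 41.8%, 42.3% and 42.6%, and after correction for GC content and length the medians were 0.38, 0.36 and 0.31. The same correction moved chromosome 21 from -0.45 to -0.26. The values against each line differed. Chromosome 21 was 0.02 against A549 and -0.83 against PC3, and chromosome 18 was 0 against PC3, whereas chromosome 13 was 0.54, 0.45 and 0.57 against A549, PC3 and T47D. Copy number was not measured, and its part in these values was not tested.

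**Figure D5:**
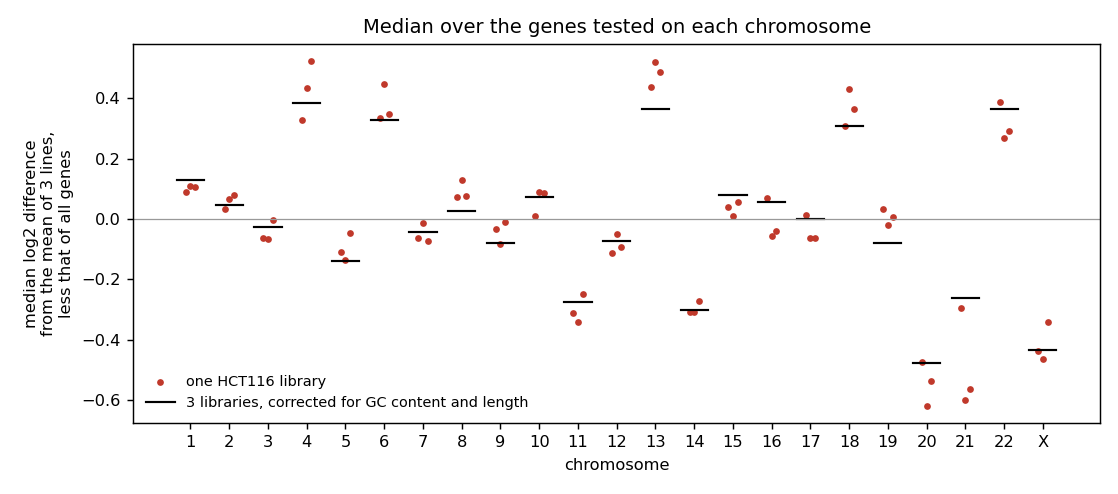
Median log2 difference of HCT116 from the mean of the 3 lines over the genes tested on each chromosome, less the median of all genes tested. Points are the 3 HCT116 libraries and bars the 3 libraries together after correction for GC content and length, and chromosomes 4, 6, 13, 18 and 22 lie above 0 and 11, 14, 20, 21 and X below it in every library.

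The comparison was repeated on the 12 libraries kept at 0.5% oxygen for 16 h, which are separate libraries of the same lines. Of 15514 genes tested, 4963 were higher (32.0%) and 4517 lower (29.1%) than the mean, and 1568 (10.1%) were higher and 1682 (10.8%) lower than each line. Of the genes higher than each line in normoxia, 991 were also higher than each line in hypoxia, which is 49.7% of the normoxic and 63.2% of the hypoxic genes. Of the lower ones, 1153 were shared, 65.7% and 68.5% of the 2 sets. GTSF1 stood at 132, 131 and 113 CPM and AXIN2 at 20.1, 5.602 and 14.5 CPM in the hypoxic HCT116 libraries, and IGFBP4 at 0, 1.57 and 0 CPM. GTSF1 and AXIN2 did not overlap the other lines there. The 90 IGFBP4 counts all came from 1 hypoxic library, replicate 2, and the gene was again lower than each line. BHLHE40, a HIF target lower than each line in normoxia, was above the mean in hypoxia with a log2 difference of 0.67. Of the Wnt target list, 9 genes were higher than each line in hypoxia and 7 in normoxia.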

How the data were processed

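Polyadenylated RNA libraries (directional NEBNext Ultra II kit) had been trimmed with Trim Galore 0.3.3, aligned to GRCh37 with HISAT2 2.05 and freed of non-unique fragments with Picard 2.0.1, per the submitters' processing notes and the study's methods. The authors deposited raw read counts per gene symbol, made with HTSeq 0.5.4p3 in intersection-strict mode, and the strand setting is not given in the sources used here, so overlapping and antisense genes may share counts. From these counts edgeR 4.0.16 in R 4.3.3 gave TMM scaling, a filter on low counts and the quasi-likelihood test on the 12 normoxic libraries, with Benjamini-Hochberg adjustment over all genes tested, and the contrast was HCT116 less the mean of the 3 lines or each line. The SE was the log2 difference divided by the root of the F statistic. DESeq2 1.42.0 and other scalings, filters, thresholds, a replicate block and a correction for GC content and length were alternatives. The scripts were tested on simulated data.

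Members, gene lists and tests were chosen with earlier results of these data known. Named genes were the 15 with the widest gap above and the 15 below each line (no overlap between libraries, at least 5 CPM in HCT116 or in each other line), up to 4 called members of each list with the largest difference, and a set of line markers. Other members are named as examples of their lists and were chosen after their values were seen. Gene positions came from GENCODE on GRCh37, which matched 21584 of 23106 symbols (93.4%). Medians with zeros at the floor were added after the data were seen. Promoters came from the RefSeq table. Replicate numbers were not treated as pairs. The deviations of same-numbered libraries correlated at -0.275 to 0.362 and passed 0.1 in 5 of 18 pairs. Those 5 pairs lay among A549, HCT116 and T47D in replicates 2 and 3, and whether same-numbered libraries were handled together was not tested. Results for some genes and gene lists are not reported here.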

Additional observations from a re-analysis of the deposited data

Results flagged for a closer look

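For 8 genes HCT116 was called against each of the other lines in opposite directions at the 2 oxygen levels. The difference was tested as an interaction in an edgeR fit of all 24 libraries, which was added after the opposite calls were seen, so its p values are not independent of the choice of genes. The log2 difference of HCT116 from the mean was lower in hypoxia than in normoxia by -1.513 for ASAH1, a lysosomal ceramidase (adjusted p = 5.13e-05), by -1.443 for ASNSD1 (0.000581), by -1.146 for NDUFAF2, an assembly factor of respiratory complex I (0.00149), by -1.493 for TRMT11, a tRNA methyltransferase (0.000943), and by -1.917 for VPS13A, a lipid transfer protein (0.000127). It was higher in hypoxia by 1.375 for MESDC1 (adjusted p = 5.21e-05), by 1.66 for MOB3A (1.66e-05) and by 1.196 for NGLY1, a deglycosylating enzyme (0.00191). VPS13A moved from 1.04 in normoxia to -0.93 in hypoxia, and MOB3A from -0.53 to 1.08. The 5 genes that were higher in normoxia have a GC content of 35.9% to 38.9%, and NGLY1, which was lower, has 36.2%. After correction for GC content and length the normoxic difference of NDUFAF2 was 0.17 in place of 0.68, that of VPS13A 1.18 in place of 1.04 and that of NGLY1 -0.98 in place of -0.53, and the part of GC content in these changes was not tested.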

How the results depend on the processing

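With a fold change over 2, the counts against the mean fell to 3292 higher and 2362 lower, and those against each line to 1139 and 903, by construction of that threshold. All other counts stayed within 1.5 times. DESeq2 called 5475 genes higher and 5349 lower than the mean and 1965 and 1872 against each line. Upper quartile scaling moved the median of all genes to 0.12 on the log2 scale, and the share of higher calls ranged from 49.4% to 59.3% over the alternatives (54% as reported). Leaving out 1 library in turn gave 5025 to 5565 higher and 4040 to 4616 lower than the mean, and 1669 to 2047 higher and 1486 to 1813 lower than each line, the lowest without HCT116 replicate 2. In hypoxia these ranges were 4522 to 5249, 4032 to 4754, 1371 to 1771 and 1458 to 1837. With the replicate block, whose numbers were not shown to pair the samples, 5287 were higher and 4523 lower than the mean and 1883 and 1687 against each line, and in hypoxia 4843, 4417, 1496 and 1607. For the 121 named genes tested, 2863 of 2893 alternative values kept their direction and call. The other 30, in 13 genes that include CEACAM5, KLK4, STEAP2, KDR, SYP, ASCL2, LEF1, IFI16, IFI44L, MB21D1 and HIF1A, lost the call, and none reversed. SYP and HIF1A lost it only with a fold change over 2, by construction of that threshold. With 3 libraries a line, and counts under the floor of 0.0454 to 0.13 CPM, small differences of low genes were not detectable at this depth.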

Other observations

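Genes of the cytosolic ribosome stood higher in HCT116 as a group, which was chosen after its values were seen and carries no test. Of 78 tested, 73 were higher and 0 lower than the mean of the other lines by edgeR's quasi-likelihood test (34.8% and 29.6% of all genes), and 51 (65.4%, against 12.8% of all genes) were higher than each line, with a median log2 difference of 1.17 against 0.01 over all genes. The median was 1.09 against A549, 1.27 against PC3 and 1.14 against T47D. These genes took 12.1%, 18.7% and 12.1% of the counts in the 3 HCT116 libraries and 5.19% to 9.33% in the other 9, so no other library reached the HCT116 values, and HCT116 replicate 2 was the highest. Without replicate 2 the median was 0.89, and after correction for GC content and length it was 0.93, with 45 higher than each line. In hypoxia the median was 0.45 and 16 were higher than each line. Ribosomal protein genes have many processed pseudogene copies and reads without a unique position had been removed, so their levels are uncertain, and the part of replicate 2, read placement and GC content in this pattern was not tested.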
